A study of Mus musculus with 10 samples.

Results

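The unfolded protein response and the integrated stress response were followed through 36 genes in mouse B-cell lymphomas treated with Adriamycin. The genes were taken from a list of the pathway's known members, and each was represented by the probe set with the highest mean signal over all arrays among those annotated to that gene alone. They comprised 16 genes of the ATF4 branch and 20 genes of the endoplasmic reticulum (ER), namely stress sensors, chaperones and degradation factors. All 36 had such a probe set, among 18193 genes in all, and all 36 passed the filter on low signals that left 11472 genes for testing. Each of 5 lymphomas gave an array of ADR cells and an array of untreated cells, and the lymphoma number (lymphoma_5783, lymphoma_7890, lymphoma_9250, lymphoma_1032 or lymphoma_4936) pairs them. ADR cells had received Adriamycin (doxorubicin, a DNA-damaging cytostatic) at 0.05 µg/ml in vitro for 5 days, and untreated cells had received none. How long the untreated cells were kept in culture is not given in the sources used here. Both groups were primary lymph node lymphoma cells of Emu-myc;Suv39h1-/- mice, in which c-Myc is constitutively expressed in the B lineage and which by their genotype lack the histone methyltransferase Suv39h1; Suv39h1 itself is not analysed here. Both groups had been transduced with Bcl2 in the retroviral vector MSCVpuro and selected with puromycin for 48 h. Both grew on NIH 3T3 fibroblasts irradiated with 20 Gy, in a medium with 4 mM L-glutamine and 25 µM beta-mercaptoethanol, so that no group had an intact Suv39h1 or lacked the added Bcl2.

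When proteins misfold in the ER, the sensors PERK (gene Eif2ak3), IRE1 (Ern1) and ATF6 are released from the chaperone BiP (Hspa5). PERK phosphorylates the translation initiation factor eIF2alpha, as do kinases that sense amino acid shortage, haem shortage or viral RNA; this slows protein synthesis in general while the transcription factor ATF4 is translated, and ATF4 in turn activates genes of amino acid supply, tRNA charging and, with CHOP (Ddit3), cell death. IRE1, through the spliced transcription factor XBP1, and ATF6 activate genes of ER chaperones and of ER-associated degradation. In the B lineage this machinery is best known for the secretory expansion of plasma cells, and in Myc-driven lymphoma cells the PERK arm is known to be engaged. ATF4, IRE1, XBP1 and ATF6 are controlled largely by translation, phosphorylation, splicing or cleavage, which an array of total RNA does not show.

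The signals are log2 values, and their precision is limited by the number of arrays, 5 in each group. Array medians lay between 4.43 and 4.50, apart from the ADR array of lymphoma_1032 at 4.15. The highest signal was 15.63 on that array and between 14.04 and 14.45 on the others, so that its range of values differed as well as its median. The mean signal over 10 B cell markers was between 8.40 and 10.24 on ADR arrays and between 8.75 and 10.29 on untreated arrays. Lymphoma_1032 had the least: its signal of Ms4a1, which encodes CD20, was 4.79 in ADR and 5.09 in untreated cells, against at least 7.87 on every array of the other lymphomas. Macrophage markers, 12 of which were tested, had mean signals between 5.44 and 9.90 on ADR arrays and between 5.23 and 9.63 on untreated arrays, with mean changes of 1.37, 0.17, -0.23, 1.21 and 0.21 (log2, ADR minus untreated) in lymphoma_5783, lymphoma_7890, lymphoma_9250, lymphoma_1032 and lymphoma_4936. Lymphoma_7890 had the highest untreated mean of these markers, 9.63, and a mean of 9.80 in ADR cells. The macrophage markers Mrc1, C1qa, C1qb, C1qc and Cd163 were below the filter. The 13 tested fibroblast markers had mean signals between 6.16 and 8.51 on ADR arrays and between 5.98 and 7.74 on untreated arrays, and their mean changes were 0.76, -0.11, -0.06, 0.60 and 0.18 in the same order. In a bulk sample, fewer cells of a type and less RNA per cell cannot be told apart.

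No gene of either branch passed the test of ADR against untreated cells. Limma, fitted with the lymphoma as a block over all 11472 genes, called 0 genes (0%) after Benjamini-Hochberg adjustment at 0.05, and the smallest adjusted p was 0.551 over all genes and 0.565 over the 36. Over all 11472 genes 6329 were lower on average in ADR cells and 5143 higher. Of the 36, 23 had a lower signal on average and 13 a higher one, with mean changes between -0.98 (Trib3) and 0.26 (Calr). The unadjusted p was under 0.05 for 4 of them, Asns, Trib3, Mthfd2 and Psat1, all lower in ADR cells and all of the ATF4 branch. Over 14 other settings of the fit, such a p was reached in 13 by Asns, in 10 by Trib3, in 9 by Mthfd2 and in 8 by Psat1, and by none of them without lymphoma_5783 and lymphoma_1032. Over all genes 973 had such a p, 518 of them lower (4.52%) and 455 higher (3.97%). The sign of the change was the same in all 5 lymphomas for 4 of the 36: Asns, Psat1 and Mthfd2 were lower in every ADR array than in its untreated partner, and Phgdh was higher in every one. Over all genes 4.82% were lower in all 5 lymphomas and 4.67% higher in all 5. The ranges of the ADR and the untreated signals overlapped for each of the 36 genes, and the share of all genes with such an overlap was not counted.

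**Figure D1:**
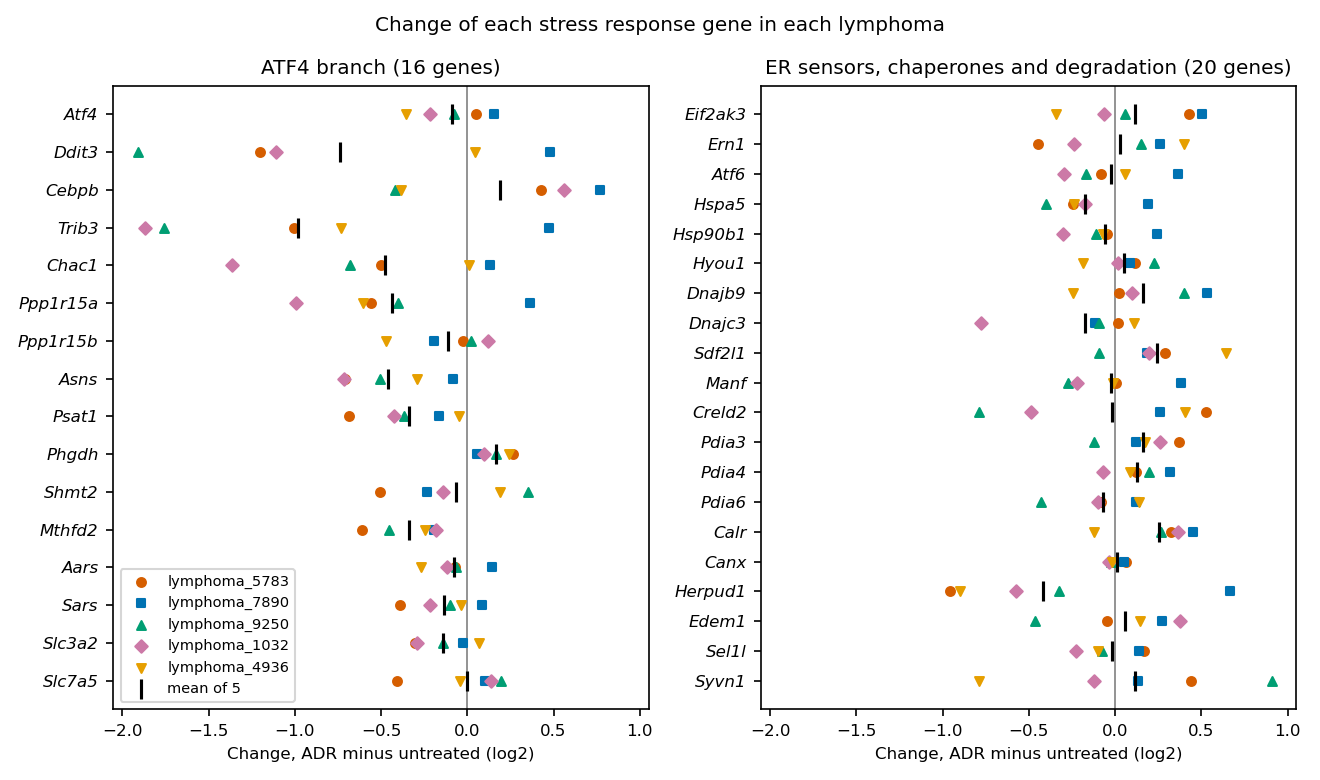
Change of each of the 36 genes (horizontal axis, ADR minus untreated signal, log2) in each of the 5 lymphomas (coloured symbols) with the mean of 5 (black bar), in 2 panels for the 16 genes of the ATF4 branch and the 20 ER genes. Trib3 and Ddit3 have the lowest means, -0.98 and -0.74, and the lymphoma_7890 symbols lie to the right of the others for Ddit3, Trib3, Ppp1r15a and Herpud1.

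The 2 branches gave different medians, a difference that was described and not tested. The ATF4 branch had 14 lower and 2 higher members and a median change of -0.14. The ER genes had 9 lower and 11 higher members and a median of 0.02. Over all genes tested, 6329 were lower and 5143 higher, with a median of -0.02. Over the ATF4 members the mean change was 0.12 in lymphoma_7890, against -0.39 and -0.38 in lymphoma_5783 and lymphoma_9250, -0.42 in lymphoma_1032 and -0.18 in lymphoma_4936, a mean of -0.25 ± 0.23 (SD, n = 5). It was thus below 0 in 4 lymphomas and above 0 in lymphoma_7890. The mean change over the ER members was 0.05, 0.26, -0.06, -0.12 and -0.04 in lymphoma_5783, lymphoma_7890, lymphoma_9250, lymphoma_1032 and lymphoma_4936, a mean of 0.02 ± 0.15, and it too was highest in lymphoma_7890. The mean change over all genes was 0.06, 0.00, -0.05, -0.21 and 0.07 in the same order, so that the low value of lymphoma_1032 was accompanied by a lower signal over all genes. Without lymphoma_5783 and lymphoma_1032, the 2 lymphomas in which the means of the macrophage and fibroblast markers were highest in ADR against untreated cells, the mean change was -0.15 over the ATF4 members and 0.05 over the ER members.

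Within 250 bases before the annotated start, 12 of the 31 members with a RefSeq promoter (mouse build GRCm38.p6) held one of 4 sequence elements known from these pathways, searched on both strands. The ER stress response element (CCAAT and CCACG, 9 bases apart), to which ATF6 and NF-Y bind, was found in 8 of 17 ER genes (Calr, Canx, Creld2, Dnajc3, Hsp90b1, Hspa5, Pdia6 and Syvn1) and in 0 of 14 ATF4 branch genes, and 37 of all 32851 promoters (0.113%) held it. Its variant with ATTGG and CCACG 1 base apart was found in Herpud1 and in 10 promoters in all (0.0304%). The element TGATGNAA, to which ATF4 binds with a C/EBP partner, was found in Aars, Asns and Chac1 and, among the ER genes, in Herpud1, beside 3.45% of all promoters. TGACGTGG, known as a site of XBP1 and ATF6, was found in no member and in 0.563% of all promoters. The CCACG of the ER stress response element also ends its variant and lies in the reverse complement of TGACGTGG, so that matches to these elements could overlap. Counted by gene over the 9325 tested genes with a promoter, 0.15% held the ER stress response element and 0.0751% its variant. TGATGNAA was held by 2.34% of them and TGACGTGG by 0.912%. Slc7a5, Ppp1r15b, Atf6, Hyou1 and Manf were not searched. The 4 promoters below belong to the genes followed array by array further on. They are printed from 250 bases before the start to the base before it, on the strand of the gene, with the element in capitals; a capital stands for a base the element fixes. Asns, from chr6:7693210-7693459 on the minus strand, has TGATGNAA 23 to 16 bases before the start. Hspa5, from chr2:34771840-34772089 on the plus strand, has the ER stress response element 65 to 47 bases before the start. Calr, from chr8:84846932-84847181 on the minus strand, has it in the opposite orientation 162 to 144 bases before the start. Herpud1, from chr8:94386179-94386428 on the plus strand, has TGATGNAA in the opposite orientation 112 to 105 bases before the start and the variant of the ER stress response element 52 to 42 bases before it.
Asns: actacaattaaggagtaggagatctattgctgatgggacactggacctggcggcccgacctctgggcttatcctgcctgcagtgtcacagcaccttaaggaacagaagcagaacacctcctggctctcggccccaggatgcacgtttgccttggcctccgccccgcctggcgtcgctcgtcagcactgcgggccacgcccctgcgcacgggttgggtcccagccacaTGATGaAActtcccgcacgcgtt
Hspa5: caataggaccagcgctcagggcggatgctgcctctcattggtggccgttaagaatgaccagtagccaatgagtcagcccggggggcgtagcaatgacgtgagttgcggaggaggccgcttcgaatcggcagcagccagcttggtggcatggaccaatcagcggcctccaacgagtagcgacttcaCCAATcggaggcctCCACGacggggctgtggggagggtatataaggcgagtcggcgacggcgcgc
Calr: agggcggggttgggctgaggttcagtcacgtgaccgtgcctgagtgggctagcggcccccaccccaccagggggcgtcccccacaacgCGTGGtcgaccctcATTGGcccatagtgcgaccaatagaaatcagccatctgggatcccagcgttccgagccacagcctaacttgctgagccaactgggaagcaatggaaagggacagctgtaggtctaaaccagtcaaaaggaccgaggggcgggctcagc
Herpud1: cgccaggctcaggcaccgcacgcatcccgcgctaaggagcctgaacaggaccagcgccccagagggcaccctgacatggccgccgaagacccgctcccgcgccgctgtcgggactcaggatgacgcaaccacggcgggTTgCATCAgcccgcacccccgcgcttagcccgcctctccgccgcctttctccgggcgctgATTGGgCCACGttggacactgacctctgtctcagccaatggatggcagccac

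Among the transcription factors of the ATF4 branch, Ddit3 and its target Trib3 were lower on average in ADR cells, while the chosen probe set of Atf4 itself differed little. Atf4 had signals of 10.79, 10.41, 10.49, 10.31 and 10.17 in ADR cells and of 10.74, 10.26, 10.57, 10.53 and 10.53 in untreated cells, in the order lymphoma_5783, lymphoma_7890, lymphoma_9250, lymphoma_1032 and lymphoma_4936, which holds for all lists of 5 values below. The groups overlapped, and the change of -0.09 ± 0.20 (log2, SD, n = 5 here and below; 95% confidence interval of the fit -0.36 to 0.19, limma adjusted p = 0.83) had a positive sign in 2 lymphomas and a negative one in 3. Averaged over the probe sets of Atf4 the change was -0.227. Ddit3, which encodes the pro-apoptotic factor CHOP, had 8.63, 7.28, 6.19, 8.45 and 7.24 in ADR cells against 9.83, 6.80, 8.10, 9.55 and 7.19 in untreated cells. Its signal was lower by at least 1.11 in lymphoma_5783, lymphoma_9250 and lymphoma_1032, the 3 lymphomas with the highest untreated signal, and higher in lymphoma_7890 and lymphoma_4936, the 2 with the lowest; the untreated signal enters both the level and the change. The mean change of Ddit3 was -0.74 ± 0.98 (interval -1.53 to 0.05, limma adjusted p = 0.579). It was -1.05 without lymphoma_7890, -0.447 without lymphoma_9250 and -0.463 without lymphoma_5783 and lymphoma_1032.

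Trib3 encodes a pseudokinase that ATF4 and CHOP induce and that feeds back on ATF4. It had 6.41, 6.92, 6.22, 6.68 and 6.33 in ADR cells against 7.42, 6.45, 7.98, 8.55 and 7.07 in untreated cells. The ADR signals of 4 lymphomas lay below their untreated partners and within a narrow range, and lymphoma_7890, lowest among the untreated arrays, had the highest ADR signal. The change was -0.98 ± 0.94 (interval -1.74 to -0.22), which is an ADR signal of 0.507 times the untreated one, with an unadjusted p of 0.0186 and a limma adjusted p of 0.565. The change of Trib3 was -1.34 without lymphoma_7890, -0.757 without lymphoma_1032, -0.784 without lymphoma_9250, -0.757 with array weights and -0.673 without lymphoma_5783 and lymphoma_1032, and in the last 4 of these fits the unadjusted p was above 0.05. Chac1, a glutathione-degrading enzyme downstream of ATF4 and CHOP, had 6.28, 6.20, 6.24, 6.09 and 6.14 in ADR cells against 6.78, 6.07, 6.92, 7.45 and 6.13 in untreated cells; it and Psat1, Phgdh and Ppp1r15a are given by array because of their values, outside the rule for named genes. All ADR signals of Chac1 lay within 0.2 of each other, at the level of the 2 lowest untreated arrays, lymphoma_7890 and lymphoma_4936. No detection call per array was used here. The change of Chac1 was -0.48 ± 0.60 (limma adjusted p = 0.579), -0.259 without lymphoma_1032 and -0.179 without lymphoma_5783 and lymphoma_1032. That of Cebpb, a C/EBP partner of ATF4 and CHOP, higher in 3 lymphomas and lower in 2, was 0.19 ± 0.56 (adjusted p = 0.784).

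The 2 regulators of the phosphatase that reverses eIF2alpha phosphorylation differed in their values. Ppp1r15a (GADD34), the subunit that ATF4 induces, had 8.38, 7.45, 7.93, 7.72 and 7.76 in ADR cells against 8.94, 7.08, 8.33, 8.72 and 8.36 in untreated cells. As for Trib3, lymphoma_7890 was lowest among the untreated arrays and the only lymphoma with a higher signal after ADR. The change of Ppp1r15a was -0.44 ± 0.50 (interval -0.89 to 0.01, limma adjusted p = 0.577), -0.264 with array weights and -0.214 without lymphoma_5783 and lymphoma_1032. Ppp1r15b (CReP), the constitutive subunit, had 9.60, 9.50, 9.61, 8.69 and 9.85 in ADR cells against 9.62, 9.69, 9.59, 8.56 and 10.32 in untreated cells. Its signal followed the lymphoma, lowest in lymphoma_1032 and highest in lymphoma_4936 in both groups, with a change of -0.11 ± 0.23 (adjusted p = 0.794).

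Among the enzymes of amino acid and one-carbon synthesis, Asns, Psat1 and Mthfd2 were lower after ADR in each lymphoma, whereas Phgdh was higher in each. Asns, the asparagine synthetase and a classical ATF4 target, had 8.73, 9.15, 9.18, 9.26 and 9.34 in ADR cells against 9.44, 9.23, 9.69, 9.97 and 9.64 in untreated cells. The difference was 0.08 in lymphoma_7890 and at least 0.29 in the other 4, and the highest ADR array exceeded the lowest untreated one. The change was -0.46 ± 0.27 (interval -0.77 to -0.15), an ADR signal of 0.726 times the untreated one, with an unadjusted p of 0.0094 and a limma adjusted p of 0.565. Without lymphoma_5783 and lymphoma_1032 it was -0.294 for Asns and -0.193 for Psat1. Mthfd2, a mitochondrial enzyme of the folate cycle, had 8.40, 8.59, 8.65, 9.33 and 8.69 in ADR cells against 9.01, 8.78, 9.10, 9.50 and 8.94 in untreated cells. Lymphoma_1032 was highest in both groups, and the change was -0.34 ± 0.19 (unadjusted p = 0.0209, limma adjusted p = 0.565).

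Serine synthesis gave values in both directions. Psat1, its aminotransferase, had 9.21, 9.98, 9.77, 9.93 and 10.39 in ADR cells against 9.89, 10.15, 10.14, 10.36 and 10.44 in untreated cells. The difference was greatest in lymphoma_5783 and was 0.05 in lymphoma_4936, and the change was -0.34 ± 0.25 (unadjusted p = 0.0305, limma adjusted p = 0.565). Phgdh, the dehydrogenase of the first step, had 11.30, 11.08, 11.20, 11.15 and 11.78 in ADR cells against 11.03, 11.03, 11.03, 11.06 and 11.54 in untreated cells. Its untreated signals were nearly equal in 4 lymphomas and higher in lymphoma_4936, and every ADR array was above its partner, by 0.06 to 0.27. The change of Phgdh was 0.17 ± 0.09 (interval -0.07 to 0.40, adjusted p = 0.644). Shmt2, the mitochondrial serine hydroxymethyltransferase, had 9.48, 10.35, 10.89, 9.23 and 9.98 in ADR cells against 9.98, 10.58, 10.54, 9.37 and 9.79 in untreated cells. It was lower in 3 lymphomas and higher in lymphoma_9250 and lymphoma_4936, with a change of -0.07 ± 0.34 (limma adjusted p = 0.904).

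The genes of tRNA charging and amino acid transport had small changes. Sars, the seryl-tRNA synthetase, had 9.76, 9.47, 9.89, 10.47 and 10.41 in ADR cells against 10.15, 9.39, 9.99, 10.69 and 10.44 in untreated cells. The order of the lymphomas was nearly the same in both groups, and the change was -0.13 ± 0.18 (limma adjusted p = 0.731). The changes were -0.08 ± 0.15 for Aars, the alanyl-tRNA synthetase, -0.14 ± 0.16 for Slc3a2, the heavy chain shared by several amino acid transporters, and -0.003 ± 0.24 for Slc7a5, its light chain for large neutral amino acids. The smallest limma adjusted p of these 4 was 0.709, for Slc3a2.

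**Figure D2:**
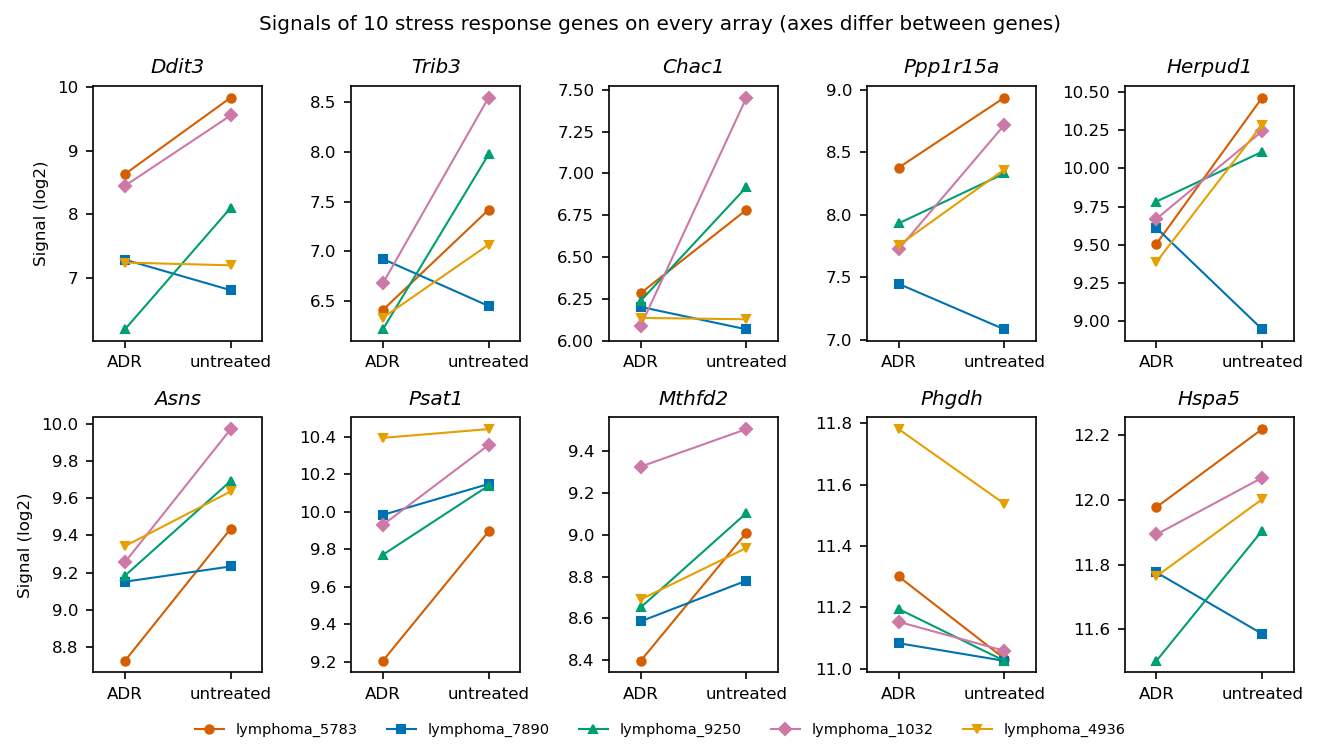
Signals (log2) of 10 genes on every array, ADR at the left and untreated at the right of each panel, with a line joining the 2 arrays of each lymphoma; vertical axes differ between genes. For Ddit3, Trib3, Chac1, Ppp1r15a and Herpud1 the lymphoma_7890 line runs against the lines of lymphoma_5783, lymphoma_9250 and lymphoma_1032, and for Asns, Psat1 and Mthfd2 all 5 lines have a lower ADR end.

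Lymphoma_7890 alone had a higher signal in ADR cells for Trib3, Ppp1r15a, Sars and Aars of the ATF4 branch, and it was higher together with 1 other lymphoma for Ddit3, Chac1 and Atf4. In untreated cells it had the lowest signal of the 5 lymphomas for 10 of the 16 ATF4 branch genes, and lymphoma_1032 had the highest for 7. Such shares were not counted over all genes. The mean untreated signal over all genes tested was 7.31 in lymphoma_7890 and 7.37 in lymphoma_1032, in a range of 7.21 to 7.37. As for Ddit3, the untreated signal of any gene enters both its level and its change, so a low untreated array favours a higher change. In lymphoma_7890 only 7 of the 36 genes had a lower signal in ADR than in untreated cells, against 20, 25, 26 and 22 of 36 in lymphoma_5783, lymphoma_9250, lymphoma_1032 and lymphoma_4936, beside 51.5% of all genes in lymphoma_7890 and 46.3%, 52.9%, 65.6% and 43.6% in the other 4. The 26 of 36 in lymphoma_1032 therefore stand beside a lower signal of most genes on that ADR array, whose median and highest signal both stood apart from those of the other arrays. Among other genes, the plasma cell genes, a list that includes Xbp1, Fkbp11 and Derl3, had a mean change of 0.74 in lymphoma_7890 and between -0.18 and 0.07 in the others. In untreated cells of lymphoma_7890 the mean of the macrophage markers was 9.63, the highest untreated mean among the lymphomas. The part of either list in the values of the 36 genes was not tested.

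**Figure D3:**
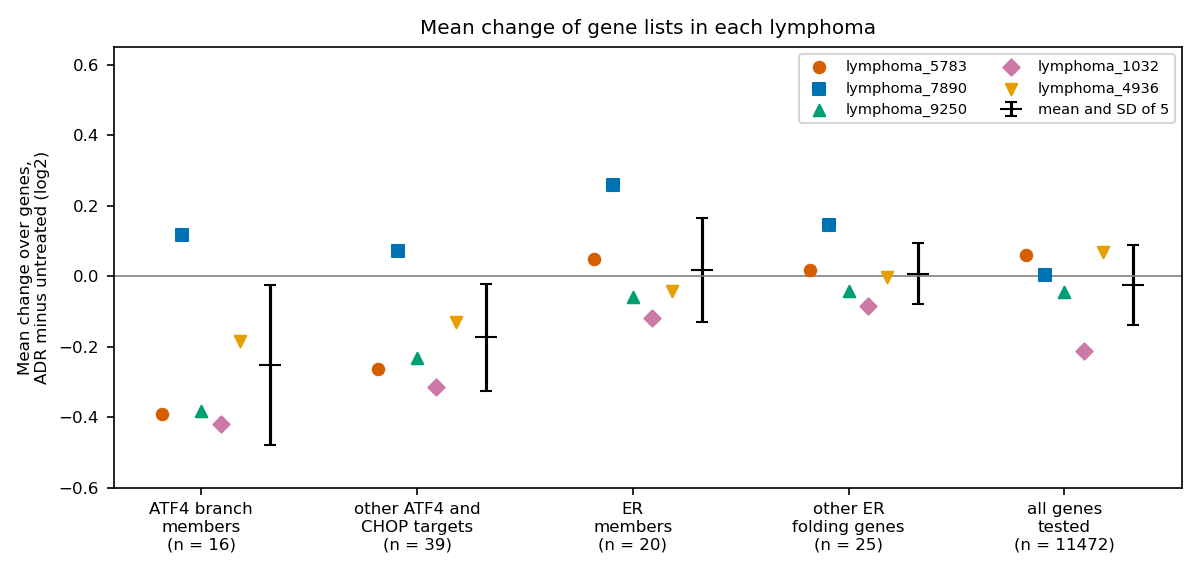
Mean change (vertical axis, ADR minus untreated, log2) of 5 sets of genes in each lymphoma (coloured symbols), with the mean and SD of the 5 lymphomas in black. The ATF4 branch members and the other ATF4 and CHOP targets lie below 0 in 4 lymphomas and above 0 in lymphoma_7890, and the ER members lie between -0.12 and 0.26.

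Of the 3 stress sensors of the ER, none had a change of one direction over the 5 lymphomas, but Eif2ak3 and Ern1 differed from lymphoma to lymphoma. Eif2ak3, which encodes PERK, had 9.79, 8.61, 8.41, 7.88 and 9.95 in ADR cells against 9.35, 8.10, 8.35, 7.94 and 10.30 in untreated cells. In both groups lymphoma_5783 and lymphoma_4936 stood above the other 3, and the change with ADR was 0.12 ± 0.35 (limma adjusted p = 0.822). Ern1, which encodes IRE1, had 6.81, 7.59, 7.21, 8.59 and 7.17 in ADR cells against 7.26, 7.33, 7.05, 8.83 and 6.77 in untreated cells. Lymphoma_1032 stood apart above the rest in both groups, and the change was 0.03 ± 0.36 (adjusted p = 0.97). Atf6 had 8.31, 8.66, 8.48, 8.35 and 8.96 in ADR cells against 8.39, 8.30, 8.65, 8.65 and 8.90 in untreated cells. Its 2 groups covered nearly the same range, with a change of -0.02 ± 0.25 (adjusted p = 0.966). Probe sets of Eif2ak3 and of Ern1 disagreed in sign, and averaging all probe sets of each gene gave changes of -0.15 and -0.048. These averages took in probe sets below the filter, as 2 of 3 were above it for Eif2ak3 and 2 of 5 for Ern1. Those above it had changes of 0.118 and -0.05 for Eif2ak3 and of 0.026 and -0.234 for Ern1. The remaining probe set of Eif2ak3, with a mean signal of 4.16, had -0.516.

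The Hsp70 and Hsp90 chaperones of the ER and their partners, 8 genes, had a median change of -0.02. Hspa5, the chaperone BiP, had 11.98, 11.78, 11.50, 11.89 and 11.76 in ADR cells against 12.22, 11.59, 11.90, 12.07 and 12.00 in untreated cells. It was lower in 4 lymphomas and higher in lymphoma_7890, which was again the lowest untreated array, and the change was -0.17 ± 0.22 (interval -0.46 to 0.11, limma adjusted p = 0.676), or -0.265 without lymphoma_7890. Dnajb9, a BiP cochaperone induced by XBP1, had 9.40, 8.56, 8.96, 8.44 and 8.42 in ADR cells against 9.37, 8.03, 8.56, 8.34 and 8.66 in untreated cells. Lymphoma_5783 was highest in both groups, and the change was 0.16 ± 0.31 (adjusted p = 0.733). Sdf2l1, a component of a BiP cochaperone complex, had 8.56, 9.004, 8.97, 9.58 and 8.31 in ADR cells against 8.27, 8.82, 9.06, 9.38 and 7.67 in untreated cells. It was higher in 4 lymphomas and lower by 0.09 in lymphoma_9250, with a change of 0.24 ± 0.26 (adjusted p = 0.61), or 0.146 without lymphoma_4936.

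The other 5 genes of this group had means close to 0 or no common direction. The changes were -0.06 ± 0.20 for Hsp90b1, the ER form of Hsp90, 0.05 ± 0.15 for Hyou1, a large Hsp70-like nucleotide exchange factor, and -0.17 ± 0.35 for Dnajc3, a BiP cochaperone. Dnajc3 was lower by 0.78 in lymphoma_1032 and between -0.12 and 0.11 elsewhere. Manf and Creld2, secreted proteins induced by ER stress, had changes of -0.02 ± 0.26 and -0.02 ± 0.58. Creld2 was higher by 0.53, 0.26 and 0.40 in lymphoma_5783, lymphoma_7890 and lymphoma_4936 and lower by 0.79 and 0.49 in lymphoma_9250 and lymphoma_1032.

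Of the folding enzymes and lectin chaperones, Calr, the calcium-binding lectin chaperone calreticulin, had the highest mean change of the 36 genes. Calr had 11.93, 11.90, 11.73, 11.97 and 11.38 in ADR cells against 11.61, 11.45, 11.46, 11.60 and 11.51 in untreated cells. In 4 lymphomas the ADR array was above all 5 untreated arrays, and in lymphoma_4936 it was below all of them. The change was 0.26 ± 0.22 (interval -0.03 to 0.54, unadjusted p = 0.0705, limma adjusted p = 0.58), and that of Canx, the membrane-bound lectin chaperone calnexin, was 0.01 ± 0.04, the smallest spread of the 36. This small spread belonged to the chosen probe set of Canx, as the SD of the change was 0.275 and 0.269 for its other probe sets. The disulfide isomerases Pdia3, Pdia4 and Pdia6 had changes of 0.16 ± 0.18, 0.13 ± 0.14 and -0.07 ± 0.23. Pdia4 was higher in 4 of 5 lymphomas (adjusted p = 0.722).

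Of the genes of ER-associated degradation, Herpud1, a membrane component of the ubiquitin ligase complex that is strongly induced by ER stress and whose promoter holds elements of both kinds, followed the pattern of Trib3 and Ppp1r15a. It had 9.51, 9.61, 9.78, 9.67 and 9.39 in ADR cells against 10.46, 8.95, 10.11, 10.24 and 10.29 in untreated cells. It was lower in 4 lymphomas and higher by 0.66 in lymphoma_7890, whose untreated signal was the lowest of the 5. The change was -0.42 ± 0.66 (interval -0.97 to 0.14, limma adjusted p = 0.621), -0.69 without lymphoma_7890, -0.211 with array weights and -0.188 without lymphoma_5783 and lymphoma_1032. Edem1, a lectin that passes misfolded glycoproteins to degradation, had 8.41, 9.38, 8.29, 10.08 and 8.21 in ADR cells against 8.46, 9.11, 8.75, 9.70 and 8.06 in untreated cells. Lymphoma_1032 and lymphoma_7890 were highest in both groups, and the change was 0.06 ± 0.33 (adjusted p = 0.919). Syvn1, the ubiquitin ligase HRD1, had a change of 0.11 ± 0.64 that ran from -0.79 in lymphoma_4936 to 0.91 in lymphoma_9250, and Sel1l, its adaptor, had a change of -0.02 ± 0.17. This value belonged to the chosen probe set of Sel1l, as its other probe sets had mean changes from -0.56 to 0.384. Of the 8 genes whose promoters hold the ER stress response element, 5 were lower and 3 higher on average in ADR cells, from -0.17 for Hspa5 and Dnajc3 to 0.26 for Calr. The 4 genes with TGATGNAA, namely Aars, Asns, Chac1 and Herpud1, were all lower on average, with changes of -0.08, -0.46, -0.48 and -0.42. So were 14 of the 16 ATF4 branch genes and 6329 of all 11472 genes, and a link between an element and the direction was not tested.

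Signals differed among the 5 lymphomas for 11 of the 36 genes, none of which passed the test of ADR. The moderated F test of limma over the lymphomas, with treatment in the fit, called 3089 of 11472 genes (26.9%) at an adjusted p of 0.05, so that 11 of 36 is a share near the background. The genes were Ddit3, Cebpb, Ppp1r15b, Shmt2 and Sars of the ATF4 branch and Eif2ak3, Ern1, Edem1, Pdia4, Sdf2l1 and Dnajb9 of the ER. The adjusted p was 0.00376 for Eif2ak3, whose mean of both arrays was highest in lymphoma_4936 at 10.12 and lowest in lymphoma_1032 at 7.91. It was 0.00871 for Edem1, at 9.89 in lymphoma_1032 and 8.13 in lymphoma_4936, and 0.00958 for Ern1, at 8.71 in lymphoma_1032 and 6.97 in lymphoma_4936. Eif2ak3 thus had its highest signal where Ern1 and Edem1 had their lowest, in lymphoma_4936, and its lowest where they had their highest, in lymphoma_1032. For Ern1, however, lymphoma_5783 at 7.035 and lymphoma_9250 at 7.13 were close to lymphoma_4936. Pdia4 was low in lymphoma_4936, with a mean of 7.53 against at least 8.52 elsewhere (adjusted p = 0.0113), and Sdf2l1 had its lowest mean there too, 7.99 (adjusted p = 0.0121). Ppp1r15b ran like Eif2ak3, lowest in lymphoma_1032 at 8.63 and highest in lymphoma_4936 at 10.08 (adjusted p = 0.013). Ddit3 had means of 9.23 and 8.999 in lymphoma_5783 and lymphoma_1032 and between 7.04 and 7.22 in the others (adjusted p = 0.0341).

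Several of these calls rested on lymphoma_1032, the lymphoma with the low B cell marker signals. Without its 2 arrays, in a fit with fewer arrays, 2 of the 36 genes were called, Eif2ak3 and Pdia4, and 1179 genes in all (10.3%). Eif2ak3 was called under each of 13 other settings tried, and Pdia4 under 12 of 13, the exception being the fit without lymphoma_4936. Ern1 was also not called when its 5 probe sets, of which 2 were above the filter, were averaged. Ddit3 was also not called with array weights or without lymphoma_5783, Sars without lymphoma_7890, and Dnajb9 with no filter or without lymphoma_5783 or lymphoma_7890. All 12 tested macrophage markers differed among the lymphomas too, and their part in these differences was not tested.

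**Figure D4:**
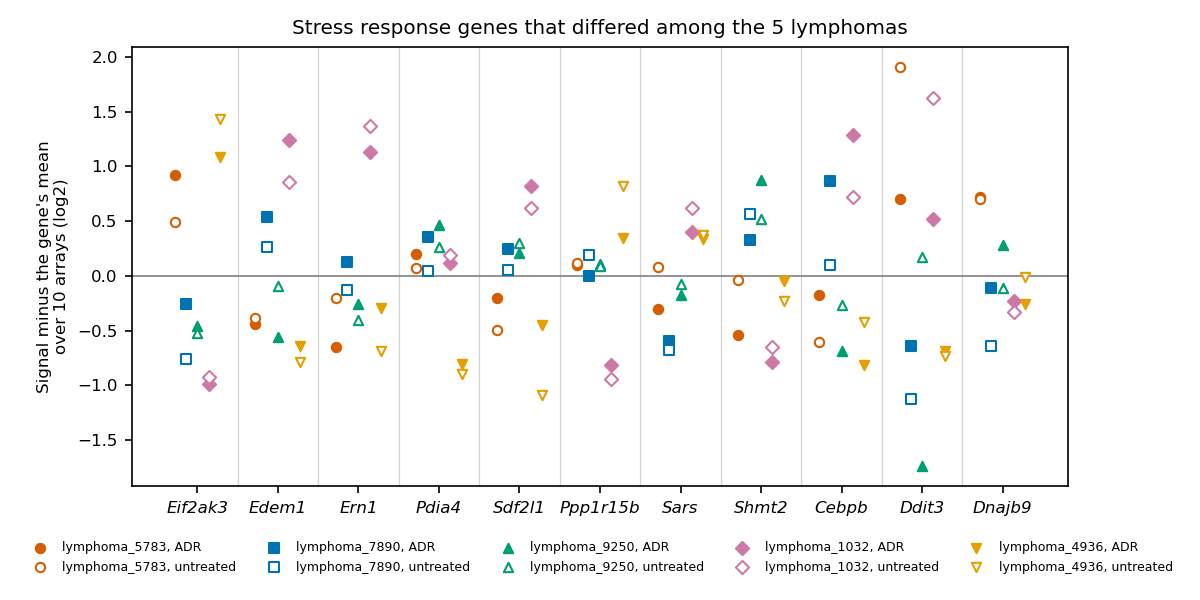
Signal minus the gene's mean over 10 arrays (vertical axis, log2) of the 11 genes that differed among lymphomas, ordered by p from the left, with ADR arrays as filled and untreated arrays as open symbols of each lymphoma. The 2 symbols of a lymphoma lie close together for Eif2ak3, Edem1 and Ern1, with lymphoma_1032 lowest for Eif2ak3 and highest for Edem1 and Ern1.

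Several genes of the stress response varied less between lymphomas in ADR than in untreated cells. The SD over the 5 lymphomas was smaller in ADR cells for 23 of the 36 genes, 9 of 16 in the ATF4 branch and 14 of 20 in the ER, beside 48.7% of all genes tested. Chac1 had an SD of 0.08 in ADR and 0.58 in untreated cells, a ratio of 0.135, and 0.0436% of all genes had a smaller ratio. Herpud1 had 0.15 in ADR and 0.61 in untreated cells (ratio 0.249), and Slc3a2 had 0.05 in ADR and 0.18 in untreated cells (ratio 0.271). Trib3 had 0.29 in ADR and 0.81 in untreated cells (ratio 0.354), and Ppp1r15a had 0.34 in ADR and 0.72 in untreated cells (ratio 0.477). For Herpud1 and Ppp1r15a the smaller SD rested on the low untreated array of lymphoma_7890, at 8.95 and 7.08. The other lymphomas had 10.11 to 10.46 untreated and 9.39 to 9.78 in ADR cells for Herpud1. For Ppp1r15a they had 8.33 to 8.94 untreated and 7.72 to 8.38 in ADR cells. All 8 genes of the Hsp70 and Hsp90 group had a smaller SD in ADR cells, with ratios between 0.599 for Manf and 0.923 for Hsp90b1. The SD was larger in ADR cells for Calr (0.24 in ADR and 0.08 in untreated cells), Syvn1 (0.69 in ADR and 0.28 in untreated cells), Psat1 (0.43 in ADR and 0.21 in untreated cells) and Cebpb (0.94 in ADR and 0.52 in untreated cells). The median ratio was 0.862 in the ATF4 branch and 0.847 in the ER, beside 1.02 over all genes. These ratios are a description of 5 against 5 arrays and were not tested.

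**Figure D5:**
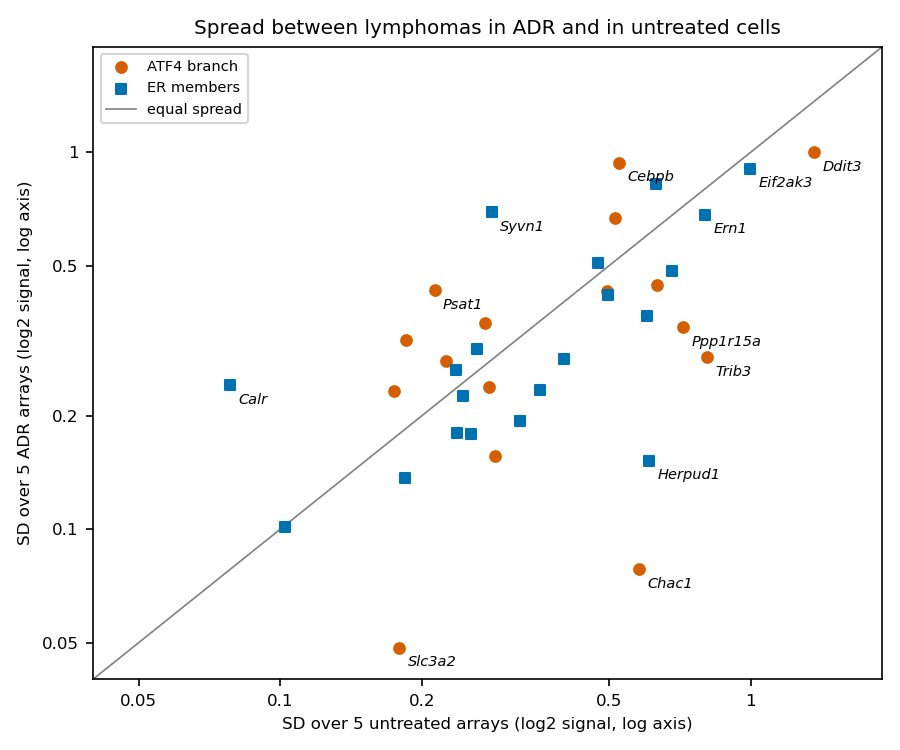
SD over the 5 ADR arrays (vertical axis) against SD over the 5 untreated arrays (horizontal axis) for the 36 genes, log2 signals on log axes, with a line of equal spread. Chac1, Herpud1, Slc3a2, Trib3 and Ppp1r15a lie well below the line and Calr, Syvn1 and Psat1 above it.

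The wider pathway was followed in lists of other genes. Of 39 other tested targets of ATF4 and CHOP, 28 were lower and 11 higher on average in ADR cells, beside 6329 and 5143 of all genes tested. Among the 39, 8 were lower and 0 higher in all 5 lymphomas, beside 4.82% and 4.67% of all genes tested. None of the 39 passed the adjusted limma test in either direction. The 39 had 6 lower and 0 higher at an unadjusted limma p under 0.05, beside 4.52% lower and 3.97% higher over all genes tested. Their median change was -0.18. Their mean changes were -0.26, 0.07, -0.23, -0.31 and -0.13 in the 5 lymphomas, above 0 in lymphoma_7890 alone, as for the ATF4 branch members. This likeness is not an independent test of the pattern. The list was read on the same arrays and was chosen with earlier results of these data known. The genes with the smallest p among those lower in all 5 were Cars, the cysteinyl-tRNA synthetase, with a change of -0.48 ± 0.21, Cebpg, a C/EBP partner of ATF4, with -0.45 ± 0.33, and Eif4ebp1, a repressor of translation initiation, with -0.35 ± 0.25 (limma adjusted p = 0.565 for each). Cars had 7.32, 7.40, 6.88, 7.33 and 7.64 in ADR cells against 7.77, 7.61, 7.48, 8.08 and 8.03 in untreated cells, so that its groups overlapped by the ADR array of lymphoma_4936 alone. Of 13 genes of the eIF2 kinases, eIF2 and eIF2B, 7 were lower and 6 higher with a median of -0.05. Eif2ak1, the haem-regulated eIF2alpha kinase, had -0.48 ± 0.41 and Eif2s2, the beta subunit of eIF2, had -0.23 ± 0.07, both lower in all 5 lymphomas (adjusted p = 0.565 and 0.577).

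On the ER side the lists of other genes had medians near 0, as the ER members had. These lists too were read on the same arrays and chosen with earlier results known, so they are not an independent test. Xbp1, the transcription factor spliced by IRE1, had 10.48, 11.21, 9.77, 10.98 and 10.26 in ADR cells against 10.03, 10.49, 9.88, 11.19 and 10.31 in untreated cells. It was higher in lymphoma_5783 and lymphoma_7890 and lower in the other 3, with a change of 0.16 ± 0.40 (limma adjusted p = 0.766), and its probe set does not tell spliced from unspliced RNA here. The other transcription factors and proteases of the pathway, 13 tested genes with Xbp1, had 5 lower and 8 higher members and a median change of 0.09. The 25 other ER folding genes had 12 lower and 13 higher members and a median of 0.01, the 22 other genes of ER-associated degradation 8 lower and 14 higher and 0.08, and the 27 genes of translocation and glycosylation 12 lower and 15 higher and 0.02. Beside these counts stand 6329 lower and 5143 higher of all genes tested. Of these lists 0 genes passed the adjusted limma test, and at an unadjusted p under 0.05 there were 1 lower transcription factor or protease, 2 higher and 1 lower folding genes, 0 degradation genes and 1 higher gene of translocation. Over all genes 4.52% were lower and 3.97% higher at such a p. Higher in all 5 lymphomas were 1 of 13, 2 of 25, 2 of 22 and 1 of 27 genes of these lists, in the order above, beside 4.67% of all genes. Lower in all 5 were 0 genes of each list, beside 4.82% of all genes. Those higher in all 5 with the smallest p of their lists were the site-2 protease Mbtps2, which cleaves ATF6, with 0.19 ± 0.10, the chaperone Cnpy2 with 0.30 ± 0.11, the glucosidase Mogs with 0.36 ± 0.28, the segregase subunit Vcp with 0.18 ± 0.09 and the translocon-associated Ssr2 with 0.23 ± 0.07.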

How the data were processed

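The deposited values are log2 signals of probe sets on single arrays. Per the submitters' processing notes, the authors used RMA and Partek. Their versions and settings are not given in the sources used, nor is the base of the logarithm, which was taken as 2 from the range of the values. No further normalization was applied. Of 45101 probe sets, 64 were controls and 34945 carried a single gene symbol in the annotation. These gave 18193 genes, each represented by the probe set with the highest mean. A gene was tested where its signal exceeded 4.43, the overall median, on 5 or more of the 10 arrays. Of the 36 genes, 28 had several probe sets, and for 5 (Eif2ak3, Ern1, Hyou1, Pdia3 and Sel1l) probe sets above the filter had changes of opposite sign.

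The change with ADR was estimated by limma 3.58.1 (lmFit and eBayes, R 4.3.3) over all tested genes with the lymphoma as a block, on 4 residual and 3.37 prior degrees of freedom. P-values are two-sided, with Benjamini-Hochberg adjustment over all tested genes and a threshold of 0.05. The pairing comes from the lymphoma number in the sample names: same-numbered arrays are of the same lymphoma, and their deviations from the group means correlated between 0.515 and 0.791 across genes, beside at most 0.218 between lymphomas. The labels do not say whether each lymphoma came from a separate mouse, and p-values measure the spread between these samples. The 36 genes and all lists were chosen with earlier results of these data known. All 36 are named with their change. Values on every array are given for 10 genes chosen for their place in the pathway, for the 3 genes of each branch with the smallest p for ADR, and for the 3 with the smallest p among lymphomas. Of the other pathway genes, Xbp1 and up to 3 per list of those with 1 sign in all 5 lymphomas were eligible. Promoter motifs were searched in RefSeq sequences of GRCm38.p6. The fit was tested on simulated data. Alternatives varied the filter, the probe set rule, normalization, centring, the prior, array weights, the block and the lymphomas included.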

Additional observations from a re-analysis of the deposited data

Results flagged for a closer look

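Among 110 groups of 5 values, the ADR signals, untreated signals and changes of the 36 genes and the mean changes of the 2 branches, 6 held a value that stood apart from the other 4 by Dixon's test, which chance alone gives in about 1 in 20 groups. The untreated signal of Phgdh was 11.54 in lymphoma_4936 and between 11.03 and 11.06 in the others. The untreated signal of Ern1 was 8.83 in lymphoma_1032 and between 6.77 and 7.33 in the others. The change of Dnajc3 was -0.78 in lymphoma_1032 and between -0.12 and 0.11 in the others. Pdia4 was low in lymphoma_4936 in both groups, at 7.57 in ADR cells, where the others had 8.50 to 8.84, and at 7.49 in untreated cells, where the others had 8.42 to 8.645. The untreated signal of Herpud1 was 8.95 in lymphoma_7890 and between 10.11 and 10.46 in the others.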

How the results depend on the processing

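With the lymphomas paired, and also with no replicate block, 0 genes and 0 of the 36 were called for ADR by limma; unadjusted p-values under 0.05 numbered 973 with the block and 262 without it, and the means of the changes are the same by construction. Over the 14 alternatives the smallest adjusted p was 0.28 for one of the 36 and 0.153 for any gene, and between 0 of the 36 (without lymphoma_5783 and lymphoma_1032, beside 4.35% of all genes) and 8 of the 36 (without lymphoma_7890, beside 7.81%) had an unadjusted p under 0.05. The mean change of the ATF4 branch stayed below 0 in all alternatives run, between -0.344 without lymphoma_7890 and -0.15 without lymphoma_5783 and lymphoma_1032, while that of the ER genes ran from -0.043 without lymphoma_7890 to 0.098 with arrays centred on their medians. Centring moved the median of all genes to 0.057. Of 504 values of single genes, 46 had another sign, in 17 genes, none of them called for ADR. With arrays centred, the change was 0.014 for Shmt2, 0.005 for Aars, 0.077 for Slc7a5, 0.056 for Atf6, 0.022 for Hsp90b1, 0.056 for Manf, 0.063 for Creld2, 0.009 for Pdia6 and 0.061 for Sel1l. Averaging a gene's probe sets, which for Eif2ak3, Ern1 and Pdia6 took in some below the filter, gave -0.15 for Eif2ak3, -0.048 for Ern1, -0.149 for Hyou1, -0.003 for Pdia3 and 0.019 for Pdia6. With array weights it was 0.02 for Slc7a5, 0.042 for Atf6, 0.003 for Hsp90b1, 0.034 for Manf and 0.02 for Sel1l. Without lymphoma_5783 and lymphoma_1032 it was -0.013 for Cebpb, 0.103 for Shmt2, 0.085 for Slc7a5, 0.086 for Atf6, 0.02 for Hsp90b1, 0.03 for Manf and -0.015 for Edem1. Leaving out 1 lymphoma at a time gave -0.172 to 0.043 for Shmt2, -0.053 to 0.099 for Slc7a5, -0.068 to 0.145 for Ern1, -0.121 to 0.044 for Atf6, -0.134 to 0.003 for Hsp90b1, -0.126 to 0.038 for Manf, -0.153 to 0.176 for Creld2, -0.123 to 0.018 for Pdia6, -0.005 to 0.019 for Canx, -0.023 to 0.188 for Edem1, -0.066 to 0.033 for Sel1l and -0.085 to 0.34 for Syvn1. The genes differing among lymphomas numbered 1179 to 2796, and 2 to 11 of the 36, on leaving out 1 lymphoma, with the lowest counts without lymphoma_1032. They numbered 758 (6.61%), and 2 of the 36, without lymphoma_5783 and lymphoma_1032, and 17 of the 36 were called with a trended and robust prior, beside 33.6% of all genes in that fit and 26.9% in the reported one. Fits without lymphomas have fewer arrays, and the cause of the other differences was not tested. With 5 pairs, changes as small as most of these lie within the confidence intervals.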
